A study of Oreochromis niloticus with 3 samples.

Results

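The genes described here code for heat shock proteins and their helpers in the hepatopancreas of juvenile Nile tilapia (Oreochromis niloticus), the organ that joins liver and exocrine pancreas in this fish. A gene was a member when its tilapia symbol began with dnaja, dnajb, dnajc, hspa, hspb, hsp90a, hspd, hspe, hsph, hsf, bag or cct, followed by a digit. Of the genes listed only by a locus number, 13937 of 27855 could be given a symbol. The rest could not be screened by this rule, so the member set may be incomplete. Of the 29605 genes in the count table, 85 were members. Of these, 72 reached 10 counts in some library and are called measured, 45 reached 100 counts, and 5 were at 0 in all 3 libraries. The fish were healthy juveniles kept at 0 psu, which was freshwater, or taken to 8 or 16 psu in steps of 4 psu per day. The labels give 5 weeks of rearing after that, and the study's methods give a longer time, so the length of exposure is uncertain. Each salinity had 3 tanks and 1 poly(A) library made from the pooled hepatopancreas RNA of 8 fish. With 1 library per salinity there was no replicate, so no value has a replicate error and the tests below compare the reads of libraries, not salinities.

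Chaperones of the HSP70 class hold exposed hydrophobic stretches of a polypeptide in a cycle driven by ATP. DnaJ proteins, also called HSP40, bring clients to HSP70 and speed up its ATP hydrolysis through their J domain, while HSP110 and BAG proteins help it to release ADP and the client. HSP90 acts late in the folding of kinases and receptors, the ring-shaped CCT chaperonin folds actin and tubulin, small heat shock proteins hold unfolded chains, and HSF transcription factors drive many of these genes under heat stress. The liver secretes most plasma proteins, which are folded in the endoplasmic reticulum (ER), where HSP70 works with DnaJ proteins of its own.

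The rule selected letters of a symbol, not a compartment, so the name cytosolic did not hold for all members. A list of textbook locations, which may be incomplete, placed 13 of the 85 members in the ER and 9 in the mitochondrion. These are called ER and mitochondrial members below. The rule also took hsf2bp, a binding partner of HSF2 that is no HSF, and hspb11, better known in mammals as an intraflagellar transport protein. Families were counted by symbol, so hsf2bp stands under HSF and hspb11 under small heat shock proteins. The largest family was DNAJC with 30 members, of which 27 were measured, followed by DNAJB with 9 of 13. All members of BAG (7), CCT (7) and DNAJA (4) were measured, as were 6 of 7 in HSP70, 4 of 6 small heat shock proteins and 3 of 4 in HSF. In HSP110 (the hspa4 genes) and in HSP90, 2 of 3 were measured, as was the only HSP60 gene resolved to a symbol. No locus was resolved to a symbol that begins with hspe or hsph, and the main ER form of HSP70, hspa5, likewise had no resolved locus. These genes were therefore not analysed here. The study itself lists HSPA5 repeatedly in its stable-then-change category, under protein export and protein processing in the ER. The absence of hspa5 here is thus no result about that gene.

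The libraries held 14627514, 13628578 and 16112951 counts at 0, 8 and 16 psu, and levels are given in CPM, the counts divided by the TMM-scaled library size and set to a common total. On this scale 1 count equalled 0.0729, 0.0716 and 0.0596 CPM at 0, 8 and 16 psu. The labels give histiocytes as the cell type, whereas summed markers of hepatocytes reached 64714, 77453 and 78477 CPM over 10 loci, and those of macrophages 44.5, 60.7 and 48.4 CPM over 7 loci. Exocrine pancreas markers summed to 8463, 11760 and 11501 CPM over 3 loci. Skeletal muscle markers summed to 19.4, 6.16 and 130 CPM over 13 loci. By the limits given below, 7 fell at 8 psu against 0 psu, where 5.33% of all genes fell. At 16 psu 11 rose against 0 psu (5.79% of all genes) and against 8 psu (3.4%). The locus atp2a1 went the other way and fell at 16 psu against 0 psu, with 13, 3 and 3 counts at 0, 8 and 16 psu. It reached 10 counts only at 0 psu, and mylpfb, neb and myl1 did so only at 16 psu. The filter thus favoured the calls of these loci. The intestinal genes fabp2 and slc15a1b each had 23 counts at 0 psu and 0 at 8 and 16 psu. In a bulk sample, fewer cells of a type and less RNA per cell cannot be told apart.

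Few chaperone genes passed the limits set for a difference between libraries. At 16 psu against 8 psu their share was near that of all genes. For a gene to be called different, 2 limits had to be passed: a fold change over 2 or under 0.5, taken on log2(CPM + 0.5), and a p below 0.05 after Benjamini-Hochberg adjustment over all 16573 genes measured. An exact binomial test, two-sided, on the gene's reads in both libraries gave the p. At 8 psu against 0 psu, 3 of the 72 measured members were called, or 4.17%, where 9.75% of all genes were. Of these, bag2 rose and hspb7 and bag4 fell, against 4.42% of all genes higher and 5.33% lower. Between 16 and 0 psu, 2 members were called, or 2.78%, where 11.1% of all genes were. Both of them, dnajb11 and dnajc21, rose (5.79% of all genes), and no member fell (5.27% of all genes). Between 16 and 8 psu, 3 members were called, or 4.17%, where 5.53% of all genes were. There dnajb11 and dnajc12 rose (3.4% of all genes) and dnajb1a fell (2.13% of all genes). In all, 7 members were called in at least 1 comparison, a count for which the share of all genes was not computed. Of these 7, 5 had fewer than 100 counts in each library. Low counts were common among all called genes too. At 8 psu against 0 psu, 193 of the 733 genes called higher and 395 of the 883 called lower reached 100 counts. The genes bag2 and hspb7 passed the minimum of 10 counts only through the library in which each was highest, so the filter favoured their calls.

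**Figure D1:**
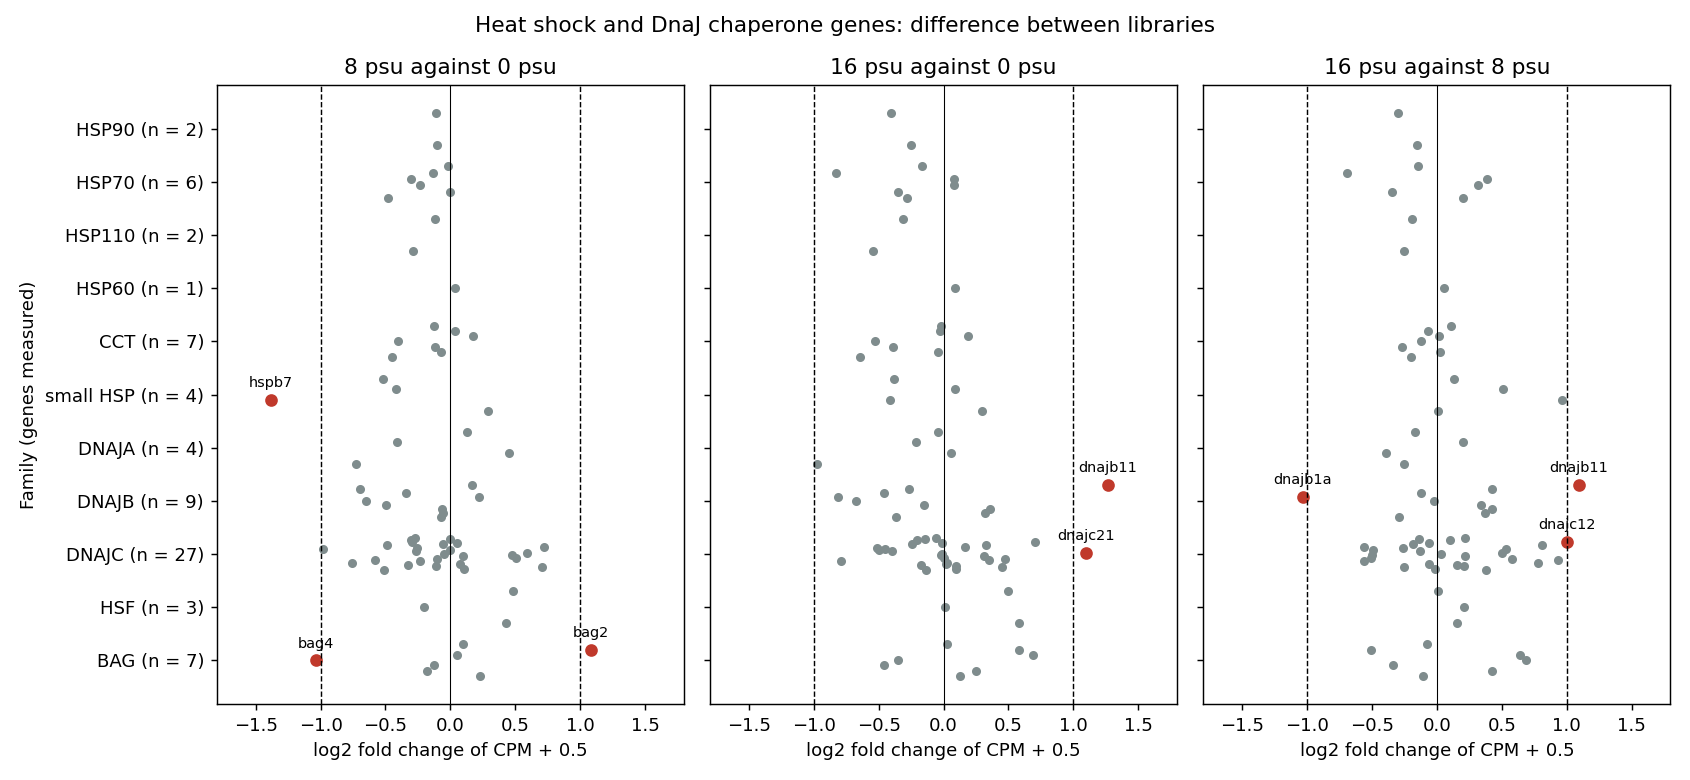
Log2 fold change of each of the 72 measured members in the 3 comparisons, with families down the page and 1 point per gene. Dashed lines mark the fold limits of 0.5 and 2, and the 7 named red genes are those called in at least 1 panel. Most points lie between the dashed lines in every panel.

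The range that counting error allows was counted for each gene. For 48 of the 72 at 8 psu against 0 psu, the 95% counting interval of the ratio lay wholly between 0.5 and 2, or 66.7% against 51.3% of all genes. At 16 psu against 0 psu this held for 47 members (65.3%, against 52.2%) and at 16 psu against 8 psu for 44 (61.1%, against 59.4%). These shares depend on depth, since 45 of the 72 members but 8291 of the 16573 genes reached 100 counts. Among genes with at least 100 counts, the shares were 88.9% of the 45 members against 81.0% of genes at 8 psu against 0 psu, and 91.1% against 79.9% at 16 psu against 0 psu. The order turned at 16 psu against 8 psu, with 88.9% of members and 89.8% of genes. These are descriptions of the lists, and no test of the members as a list was made.

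The direction of small differences depended on the scaling. The median log2 fold change of the 72 members was -0.11 at 8 psu against 0 psu, -0.04 at 16 psu against 0 psu and 0.01 at 16 psu against 8 psu, beside 0.00, 0.01 and 0.00 over all genes. At 8 psu against 0 psu, 49 members lay below 0 and 23 above. With total counts in place of TMM, 34 lay below and 38 above, and the medians were 0.01 for members and 0.12 for all genes. The split at 16 psu against 0 psu was 42 below and 30 above by TMM, against 33 and 39 by total counts, where the median was 0.10 for members and 0.14 for all genes. A scaling shifts members and other genes alike, and both comparisons share the 0 psu library, so these gaps are no independent support of each other. By TMM, the largest of the 3 values was at 0 psu for 50.0% of the members, compared with 37.0% of all genes. It was at 8 psu for 19.4%, compared with 30.7%, and other scalings were not tried for these shares. Together the members took 0.293, 0.298 and 0.294% of all raw counts at 0, 8 and 16 psu. By TMM they summed to 3124, 2910 and 2825 CPM, so the sum also depended on the scaling.

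The member with most raw counts, which are not corrected for gene length, was an HSP90 gene. The gene hsp90ab1, the constitutive cytosolic HSP90, had 19111, 18164 and 19590 counts, or 1393, 1300 and 1168 CPM at 0, 8 and 16 psu. It held 44.6, 44.7 and 41.4% of all member counts. The ratio was 0.93 at 8 psu against 0 psu (interval 0.91 to 0.95) and 0.84 at 16 psu against 0 psu (0.82 to 0.86). Both intervals exclude 1 by counting error alone, yet both ratios lay well inside the fold limits. With total counts the log2 fold change at 8 psu against 0 psu was 0.03 in place of -0.10, so its sign was set by the scaling. The inducible hsp90aa1.2 had 118, 111 and 107 counts at 0, 8 and 16 psu. Its neighbour in gene order, hsp90aa1.1, had 6, 0 and 7 counts and was below the minimum.

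None of the 6 measured members of the HSP70 family was called, where 5.53 to 11.1% of all genes were called by comparison. The ER form hspa5 had no resolved locus and so is not among these members. The member with most counts, hspa9, the mitochondrial HSP70 also called mortalin, had 1632, 1187 and 1637 counts, or 119, 85.0 and 97.6 CPM, at 0, 8 and 16 psu. Its ratio was 0.71 (0.66 to 0.77) at 8 psu against 0 psu and 0.82 (0.77 to 0.88) at 16 psu against 0 psu. The cytosolic form hspa8b had 202, 205 and 192 counts, and hspa14, a ribosome-bound HSP70 in mammals, had 199, 171 and 258. The gene hspa12b, endothelial in mammals, had 59, 54 and 37 counts, a ratio of 0.51 (0.33 to 0.79) at 16 psu against 0 psu. The stress-induced hspa1b had 0 counts in each library, which allows up to 0.219, 0.215 and 0.179 CPM at 0, 8 and 16 psu when 0 is taken to allow 3 counts. A gene listed as hsp70, whose symbol does not begin as the rule asks, had more counts than any HSP70 member. It had 14233, 17693 and 20706 counts at 0, 8 and 16 psu, with ratios of 1.22 (1.19 to 1.25) at 8 psu against 0 psu and 1.19 (1.16 to 1.22) at 16 psu against 0 psu. Which HSP70 form it stands for is not given in the sources used here.

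The HSP110 gene hspa4b, which helps HSP70 to exchange nucleotide, had 704, 585 and 587 counts, or 51.3, 41.9 and 35.0 CPM at 0, 8 and 16 psu. Its ratio was 0.82 (0.73 to 0.91) at 8 psu against 0 psu and 0.68 (0.61 to 0.76) at 16 psu against 0 psu, neither past the fold limit. Its duplicate hspa4a had 23, 21 and 21 counts, and hspa4l had 0, 0 and 2. In the mitochondrion, the HSP60 gene hspd1 had 407, 425 and 530 counts, with a ratio of 1.07 (0.93 to 1.22) at 16 psu against 0 psu.

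The 7 CCT subunits, which form the cytosolic chaperonin together with the product of tcp1, did not share a common ratio. None was called, where 5.53 to 11.1% of all genes were called by comparison. Every interval lay between 0.5 and 2 in all 3 comparisons, which held for 70.3% of all genes with at least 100 counts. That share is not matched for depth. The CCT genes had 453 or more counts in every library, and intervals narrow as counts rise. The subunit gene cct4 had 2299, 2649 and 3210 counts at 0, 8 and 16 psu, with a ratio of 1.14 (1.08 to 1.21) at 16 psu against 0 psu. In contrast, cct5 had 1710, 1312 and 1448 counts and a ratio of 0.69 (0.65 to 0.74), and cct8 had 609, 453 and 473 counts and a ratio of 0.64 (0.56 to 0.72). These intervals do not overlap that of cct4, a difference beyond counting error between subunits of the same complex and independent of the scaling. The genes cct2 (1403, 1310 and 1696 counts), cct3 (3971, 4152 and 4758) and cct7 (520, 503 and 616) had intervals that include 1 at 16 psu against 0 psu, with ratios between 0.97 and 0.99. For cct6a, with 801, 749 and 747 counts, the ratio was 0.76 (0.69 to 0.84). The tcp1 gene, outside the rule, had 1394, 1105 and 1057 counts and a ratio of 0.62 (0.57 to 0.67) in this comparison, close to that of cct8. Of 9 loci for tcp1, prefoldins and other chaperonin partners, none was called, where 5.53 to 11.1% of all genes were called by comparison. Prefoldin hands unfolded actin and tubulin to CCT, and its subunit gene pfdn1 came nearest to the limit, with 747, 408 and 459 counts at 0, 8 and 16 psu and a ratio of 0.50 (0.45 to 0.57) at 16 psu against 0 psu.

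**Figure D2:**
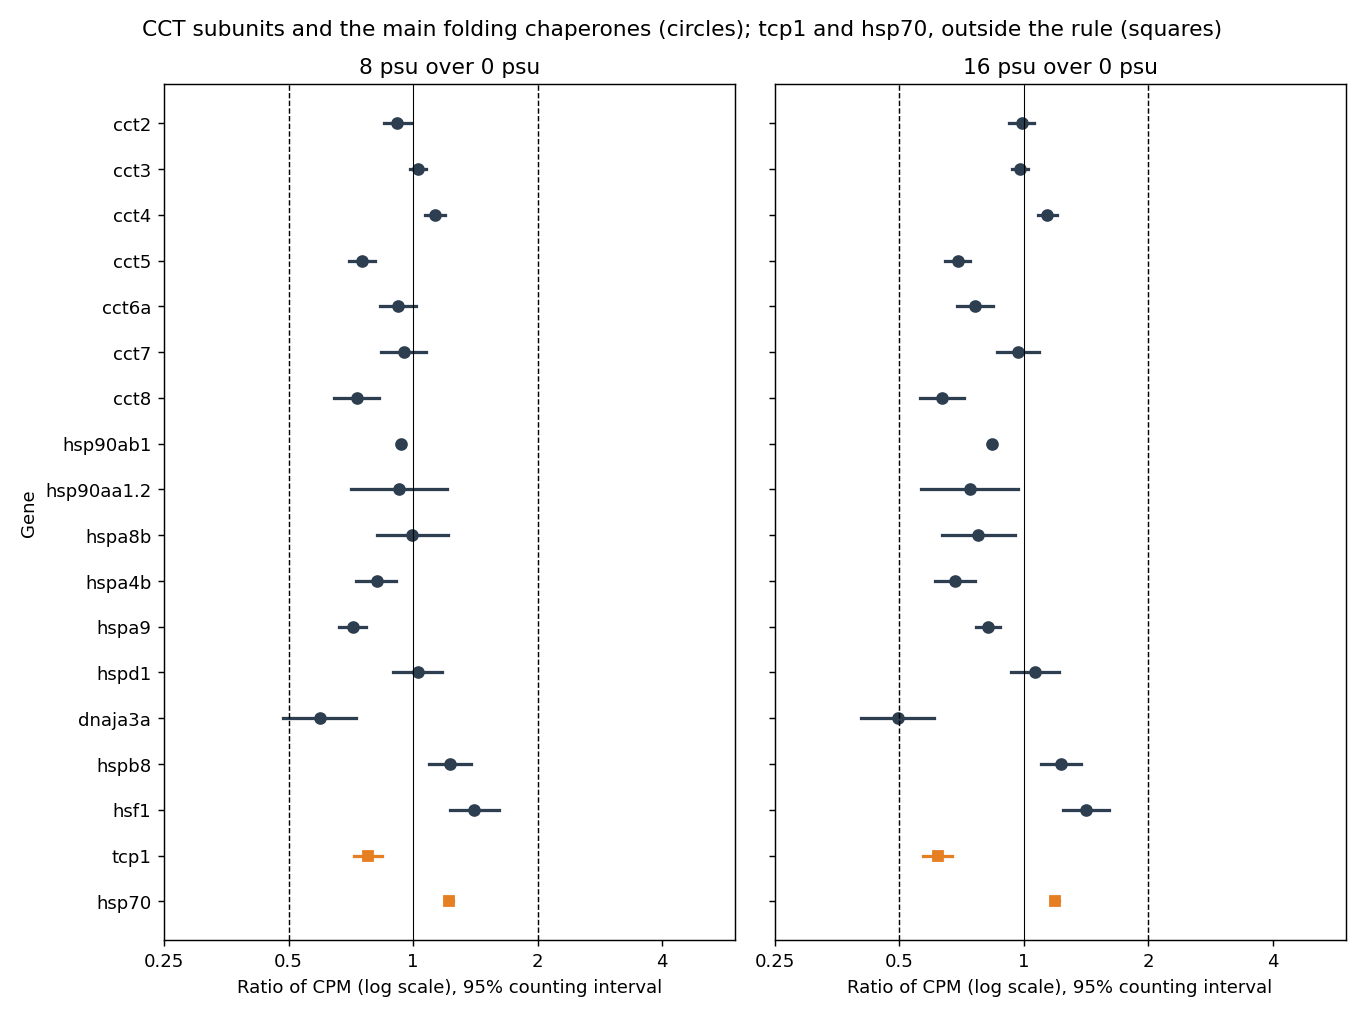
Ratio of CPM to the 0 psu library (log scale) for the CCT subunits, the main folding chaperones and hsf1, with 95% counting intervals and dashed lines at 0.5 and 2. The orange squares, tcp1 and hsp70, are not members. The points for cct5, cct8 and tcp1 lie left of 1 at both salinities, that for cct4 lies right of it, and dnaja3a at 16 psu sits on the 0.5 line.

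The DNAJB family held the clearest difference. The gene dnajb11, whose product is the ER DnaJ that delivers unfolded secretory proteins to the ER form of HSP70, had 173, 199 and 520 counts at 0, 8 and 16 psu, or 12.6, 14.3 and 31.0 CPM. The 0 and 8 psu libraries were alike, with a ratio of 1.13 (0.92 to 1.39), and the 16 psu library stood above both. At 16 psu the gene was 2.46-fold higher than at 0 psu (2.07 to 2.94, log2 fold change 1.26, adjusted p = 3.08e-26 by the exact binomial test) and 2.18-fold higher than at 8 psu (1.85 to 2.58, adjusted p = 6.76e-21). It was the only member with at least 100 counts called in either comparison of 16 psu. These p values cover the reads of the libraries only. By the edgeR exact test with an assumed coefficient of variation of 0.2, dnajb11 was called in neither comparison. In these comparisons 818 (16 against 0 psu) and 257 (16 against 8 psu) of all genes still were.

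No other ER member was called in any comparison, while 5.53 to 11.1% of all genes were called in each. The ER DnaJ gene dnajc3, known in mammals as an inhibitor of eIF2 alpha kinases and a co-chaperone of the ER lumen, had 436, 294 and 682 counts at 0, 8 and 16 psu. Its ratio was 0.66 (0.57 to 0.77) at 8 psu against 0 psu, 1.28 (1.13 to 1.45) at 16 psu against 0 psu and 1.93 (1.68 to 2.22) at 16 psu against 8 psu, where it just missed the fold limit and its interval overlapped that of dnajb11. Its duplicate dnajc3b showed a like course, with 81, 46 and 101 counts and a ratio of 1.83 (1.28 to 2.65) at 16 psu against 8 psu. Both copies were lowest at 8 psu, with intervals below 1 against 0 psu, where dnajb11 had an interval that includes 1. The gene dnajb12a, for a DnaJ anchored in the ER membrane, had 390, 242 and 394 counts, and dnajc18, of the same kind, had 63, 29 and 54. For dnajc18 the ratio of 0.45 (0.28 to 0.71) at 8 psu against 0 psu became a log2 fold change of -0.98 once 0.5 CPM was added, short of the limit. The gene dnajc1, for an ER membrane DnaJ that binds ribosomes in mammals, had 505, 424 and 594 counts, and dnajc25 had 277, 302 and 423. The disulfide reductase gene dnajc10 had 63, 64 and 69 counts and dnajb9a, an ERdj4 gene that in mammals responds to ER stress, had 23, 22 and 20. Neither had an interval that excluded 1 in any comparison. Across the 12 ER members measured, the median log2 fold change was -0.29 at 8 psu against 0 psu, -0.01 at 16 psu against 0 psu and 0.30 at 16 psu against 8 psu, where 8 of 12 lay above 0.

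**Figure D3:**
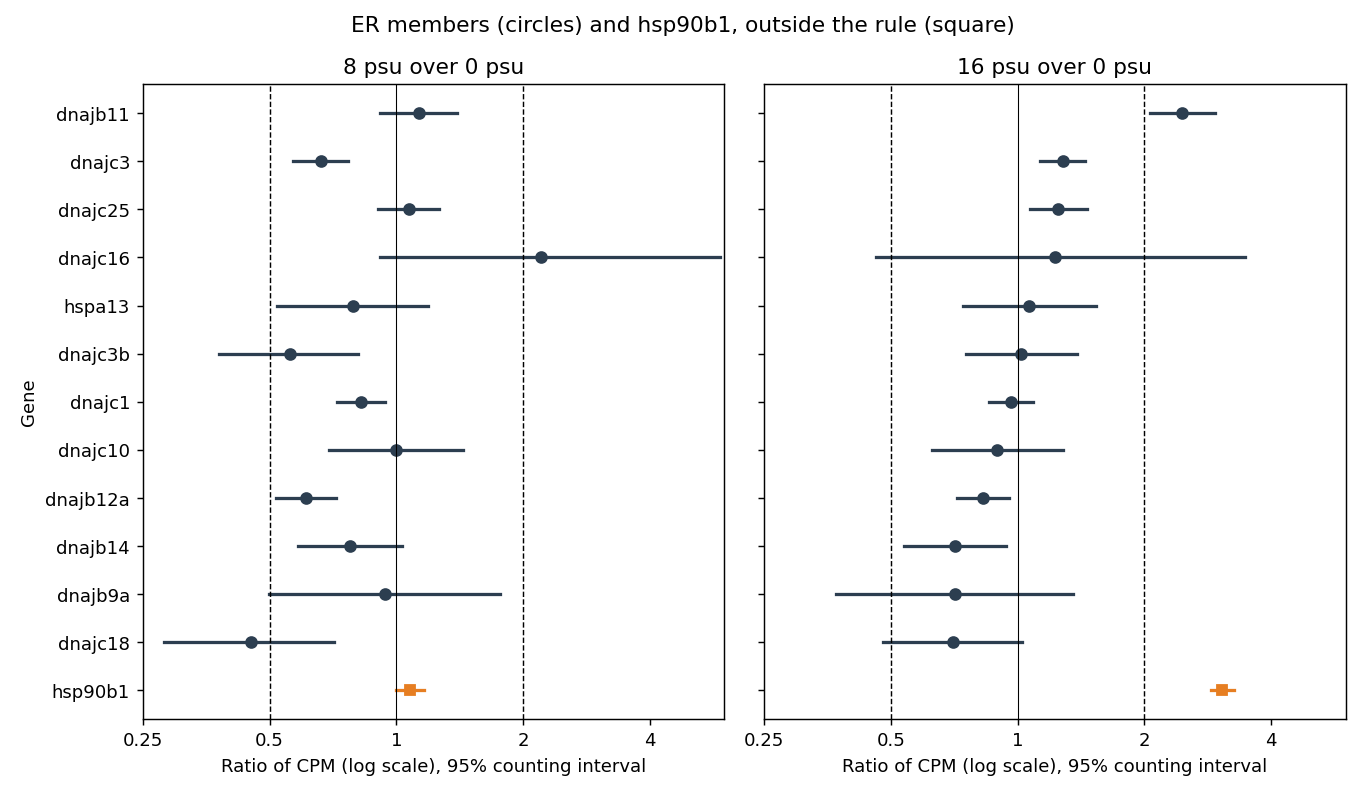
Ratio of CPM to the 0 psu library (log scale) for the 12 measured ER members, with 95% counting intervals and dashed lines at 0.5 and 2. The orange square is hsp90b1, outside the rule. At 16 psu, dnajb11 and hsp90b1 are the only genes of the panel whose whole interval lies right of 2.

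Partners of the ER folding machinery that are not members were also called at 16 psu. Of 24 loci on the list, which covers ER chaperones, disulfide isomerases, degradation factors and stress sensors, 6 rose and none fell at 16 psu against 0 psu (5.79% of all genes higher, 5.27% lower), and the median log2 fold change was 0.59. At 16 psu against 8 psu 6 rose and none fell (3.4% of all genes higher, 2.13% lower), with a median of 0.72. None was called at 8 psu against 0 psu (9.75% of all genes), with a median of -0.10. The ER HSP90 gene hsp90b1, excluded by the rule, had 1303, 1432 and 4878 counts and was 3.06-fold higher at 16 psu than at 0 psu (2.88 to 3.26). The genes hyou1, an ER HSP110, calr, the lectin chaperone calreticulin, and the disulfide isomerases pdia4 and pdia6 also rose at 16 psu against each other salinity. The largest ratio was that of calr, with 120, 70 and 605 counts, or 4.12-fold higher at 16 psu than at 0 psu (3.39 to 5.06). The list did not move as one. At 16 psu against 0 psu, 21 of the 24 loci lay above 0 and 3 below. Among the 3 were ern1, with a ratio of 0.67 (0.60 to 0.75), and herpud1, with 0.76 (0.68 to 0.84). These lists were drawn up with results of these data known. The study had already listed DNAJB11 with HSP90B1, HYOU1, CALR, PDIA4 and PDIA6 under protein processing in the ER, in its stable-then-change category. It used the same libraries, so the calls given here are no separate observation.

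Among the cytosolic DnaJ genes, dnajb1a fell at 16 psu against 8 psu. It codes for the main partner of stress-induced HSP70 and had 21, 26 and 11 counts at 0, 8 and 16 psu. The ratio at 16 psu against 8 psu was 0.35 (0.16 to 0.74), with a log2 fold change of -1.03 and an adjusted p of 0.0191 by the exact binomial test. At 16 psu against 0 psu the ratio was 0.43 (0.19 to 0.93) and the adjusted p was 0.0722. Its duplicate dnajb1b had 141, 89 and 105 counts. For dnajb1b the ratios were 0.62 (0.47 to 0.81) at 8 psu against 0 psu, 0.61 (0.47 to 0.79) at 16 psu against 0 psu and 0.98 (0.73 to 1.32) at 16 psu against 8 psu. The intervals of both copies overlapped in each comparison, at 16 psu against 8 psu only at their ends.

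The copies of dnaja2 did not move together. The ratio at 8 psu against 0 psu was 0.75 (0.63 to 0.88) for dnaja2a, with 342, 260 and 360 counts, and 1.38 (1.12 to 1.72) for dnaja2b, with 149, 210 and 190, so that the copies stood on opposite sides of 1 with intervals that do not overlap. Both code for cytosolic HSP40 proteins. The genes dnajb6a (24, 23 and 40 counts) and dnajb6b (138, 135 and 212), whose mammalian relative suppresses protein aggregation, had overlapping intervals in all comparisons. The sources used here do not give how reads matching both copies were counted, so that such reads could be split between them.

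**Figure D4:**
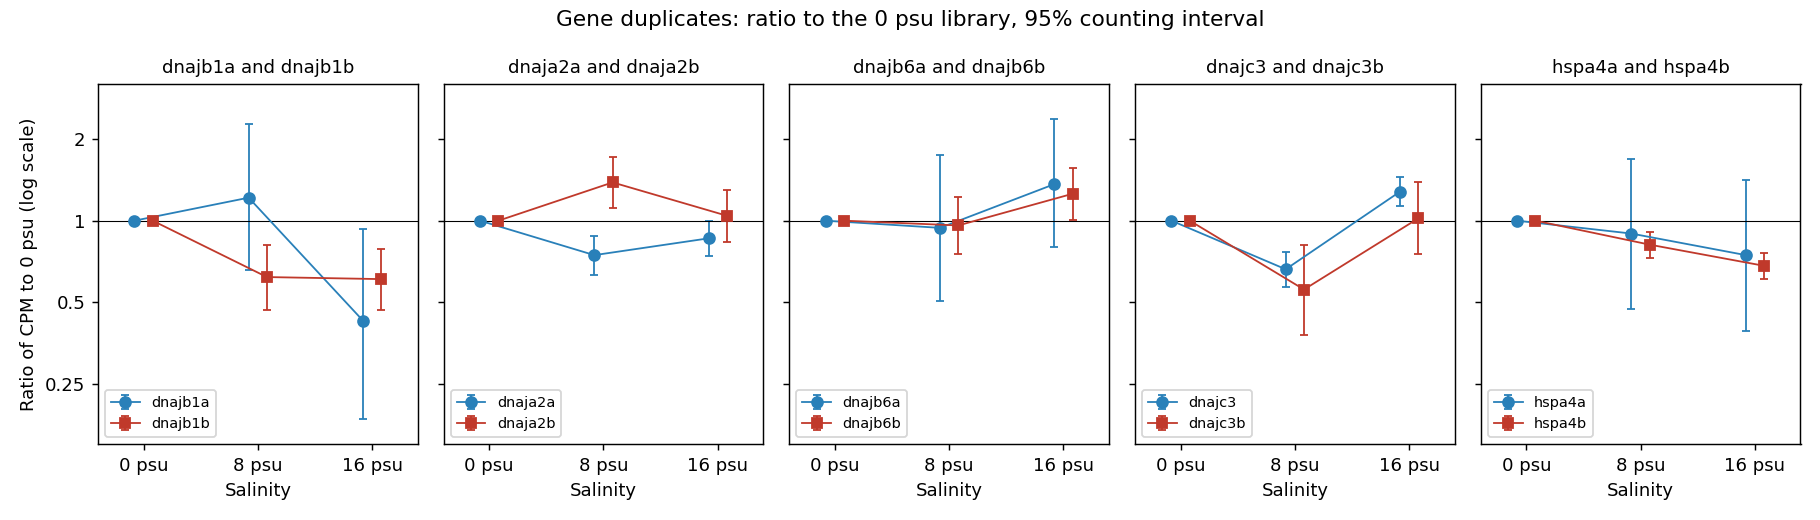
Ratio of CPM to the 0 psu library (log scale) at 0, 8 and 16 psu for 5 pairs of duplicates, with 95% counting intervals. The copies of dnaja2 part at 8 psu, those of dnajc3 share a low point at 8 psu, and those of hspa4 and dnajb6 have overlapping intervals.

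Of the 27 DNAJC genes measured, dnajc21 and dnajc12 were called, each on few reads and in 1 comparison. That was 1 of the 27 at 16 psu against 0 psu (11.1% of all genes) and 1 at 16 psu against 8 psu (5.53%). None was called at 8 psu against 0 psu (9.75%). The gene dnajc21, whose human counterpart takes part in ribosome biogenesis, had 12, 22 and 41 counts at 0, 8 and 16 psu. It was 2.79-fold higher at 16 psu than at 0 psu (1.44 to 5.84, adjusted p = 0.00462 by the exact binomial test). The gene dnajc12, whose human product is a co-chaperone of phenylalanine hydroxylase and related enzymes, had 45, 36 and 95 counts. It was 2.20-fold higher at 16 psu than at 8 psu (1.48 to 3.32, adjusted p = 0.000321), and at 16 psu against 0 psu the ratio was 1.73 (adjusted p = 0.00890), with the fold limit not passed. The DNAJC member with most counts, dnajc22, had 746, 736 and 905 and ratios of 0.97 (0.87 to 1.07) and 0.99 (0.90 to 1.09) at 8 and 16 psu against 0 psu. The gene dnajc7, whose product links HSP70 with HSP90, had 123, 209 and 209 counts and ratios of 1.67 at 8 psu against 0 psu, with a lower bound of 1.33, and 1.39 (1.11 to 1.75) at 16 psu against 0 psu. Neither passed the fold limit.

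Mitochondrial members other than hspa9 and hspd1 were J-domain genes. The gene dnajc19, a part of the protein import motor in mammals, had 653, 662 and 562 counts at 0, 8 and 16 psu. Its ratio of 0.70 (0.63 to 0.79) at 16 psu against 0 psu contrasted with 1.00 (0.89 to 1.11) at 8 psu against 0 psu. The gene dnaja3a, for the matrix partner of hspa9, had 264, 160 and 160 counts. Its ratio at 16 psu against 0 psu was 0.50 (0.40 to 0.61) with a log2 fold change of -0.98 on CPM + 0.5, just short of the limit. On that scale it was the lowest member in that comparison, while by the plain ratio dnajb1a (0.43) and dnajc30b (0.45) were lower on fewer counts. Over the 9 mitochondrial members the median log2 fold change was -0.23, -0.20 and 0.05 at 8 psu against 0 psu, 16 psu against 0 psu and 16 psu against 8 psu. Of 9 partner loci of this machinery, such as trap1 and grpel1, none was called, where 5.53 to 11.1% of all genes were called by comparison.

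Small heat shock proteins gave a single call, at 8 psu against 0 psu, where 9.75% of all genes were called. The gene hspb7, whose product is found in heart and skeletal muscle of mammals, had 11, 0 and 8 counts at 0, 8 and 16 psu. It reached the minimum of 10 counts only at 0 psu, so it was kept through the library in which it is high. Taking 0 counts to allow 3 per library and the 11 counts as exact, it was at least 3.73-fold lower at 8 psu than at 0 psu (adjusted p = 0.00378 by the exact binomial test). The counting interval of both libraries allows a ratio of up to 0.39. The skeletal muscle markers were also lowest at 8 psu, at 6.16 CPM against 19.4 CPM at 0 psu, with neb at 0 counts. At 16 psu the markers summed to 130 CPM, while hspb7 had a ratio of 0.59 (0.21 to 1.62) against 0 psu. The part of the markers in the hspb7 result was not tested. The small heat shock gene with most counts, hspb8, had 529, 662 and 798 counts at 0, 8 and 16 psu and a ratio of 1.23 at both 8 psu (1.09 to 1.38) and 16 psu against 0 psu. Its known partner in the removal of aggregates, the BAG gene bag3, had 69, 73 and 141 counts and a ratio of 1.67 (1.24 to 2.26) at 16 psu against 0 psu, short of the limit. Muscle markers summed to 130 CPM at 16 psu, against 19.4 CPM at 0 psu. At 8 psu, where they summed to 6.16 CPM, the bag3 ratio was 1.04 (0.74 to 1.47) against 0 psu. The part of the markers in the bag3 values was not tested either. The gene hspb1 had 17, 10 and 14 counts.

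BAG proteins bind HSP70 and set the fate of its clients. The gene bag4, known as a silencer of death domain receptors in mammals, had 210, 101 and 200 counts at 0, 8 and 16 psu. It fell at 8 psu to 7.23 CPM, against 15.3 CPM at 0 psu, a ratio of 0.47 (0.37 to 0.60) with a log2 fold change of -1.03 and an adjusted p of 2.55e-09 by the exact binomial test. With total counts the log2 fold change was -0.91 and with upper quartile factors -0.99, so the call rested on the scaling. For bag2, an inhibitor of the ubiquitin ligase CHIP, the counts were 1, 10 and 6. Only the 8 psu library reached the minimum of 10 counts, so bag2 was kept through the library in which it was called higher. It was 9.82-fold higher at 8 psu than at 0 psu with an interval of 1.40 to 426 (adjusted p = 0.0377 by the exact binomial test), a range so wide that the size was not determined at this depth. The BAG gene with most counts, bag6, which guards newly made membrane proteins in the cytosol, had 875, 786 and 1271 counts and a ratio of 1.19 (1.09 to 1.30) at 16 psu against 0 psu.

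The transcription factor genes showed small differences. The gene hsf1, for the main activator of the heat shock response, had 374, 536 and 647 counts, or 27.3, 38.4 and 38.6 CPM at 0, 8 and 16 psu. Its ratio was 1.41 (1.23 to 1.61) at 8 psu against 0 psu and 1.42 (1.24 to 1.61) at 16 psu against 0 psu, while the 8 and 16 psu libraries were alike at 1.01 (0.90 to 1.13). The gene hsf2 had 195, 172 and 240 counts and hsf4 had 7, 12 and 17. Over the 7 measured members of a list of cytosolic heat shock genes, in which hspa8b is mostly constitutive and the others respond to heat in many animals, namely hspa8b, hsp90aa1.2, dnajb1a, dnajb1b, dnaja1, hspb1 and bag3, the median log2 fold change was 0.00 at 8 psu against 0 psu, -0.38 at 16 psu against 0 psu and -0.17 at 16 psu against 8 psu. Of these 7, 6 lay below 0 at 16 psu against 0 psu by TMM and 5 by total counts. Of all 16573 genes, 8220 lay below 0 by TMM and 6570 by total counts. None of the 7 was called in that comparison, where 11.1% of all genes were called. The list was chosen with earlier results of these data known. Heat shock genes not on it lay on both sides of 1 in that comparison. Examples are hspb8 (1.23) and the gene listed as hsp70 (1.19) above, and hsp90ab1 (0.84) and hspa4b (0.68) below.

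Cochaperones of HSP70 and HSP90 outside the rule were measured at 22 of 23 loci. The most marked was fkbp5, whose product binds HSP90 in steroid receptor complexes, with 1097, 162 and 994 counts at 0, 8 and 16 psu. It fell at 8 psu against 0 psu, with a ratio of 0.15 (0.12 to 0.17), and rose at 16 psu against 8 psu, with a ratio of 5.11 (4.32 to 6.07). The phosphatase gene ppp5c, another HSP90 partner, had 95, 41 and 41 counts and fell at 8 psu (0.42, 0.29 to 0.62) and 16 psu (0.35, 0.24 to 0.51) against 0 psu. The gene chordc1b had 37, 71 and 35 counts and fell at 16 psu against 8 psu, with a ratio of 0.41 (0.27 to 0.62). The others were not called. Of all genes, 9.75% were called between 8 and 0 psu, 11.1% between 16 and 0 psu and 5.53% between 16 and 8 psu. The median log2 fold change of the list was -0.18 at 8 psu and -0.16 at 16 psu against 0 psu.

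The 13 members below the minimum had at most 7 counts in any library. The 5 at 0 throughout were dnajb13, dnajc5b, hspa1b, hspb12 and hspb9. The other 8 were hsp90aa1.1 and hspa4l, whose counts are given above, and dnajb12b (1, 1 and 4 counts at 0, 8 and 16 psu), dnajb4 (4, 3 and 2), dnajb5 (0, 1 and 4), dnajc5aa (1, 0 and 5), dnajc5ga (5, 0 and 0) and hsf2bp (0, 0 and 1). A difference in any of these was not detectable at this depth.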

How the data were processed

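The values are raw counts of reads per gene deposited by the authors in 1 table of 3 libraries, without normalization. The authors purified poly(A) RNA, sequenced single-end Ion Proton libraries on 1 chip and mapped the reads to the Orenil1.1 genome with MapSplice. The submitters' processing notes also name HTSeq. Locus numbers were resolved to symbols with the RefSeq gene table of the assembly O_niloticus_UMD_NMBU, which gave a symbol to 13937 of 27855 locus numbers. Of the 85 members, 77 came from locus numbers and 8 from symbols in the table, among them hspb1, which the table lists under its synonym hsp27. The gene table ties hsp70 to no symbol, so it was left out. The RefSeq assembly is not the authors', so its coordinates served only to find members that are neighbours in gene order. Transcript lengths, promoters and proteins were not used here, so genes were ordered by raw counts only and their levels per length were not compared.

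A gene was kept if any library had 10 or more counts for it. TMM scaling used edgeR 4.0.16 (R 4.3.3), and Python 3.11.15 with scipy 1.17.1 gave all further values. Counting intervals (95%) follow Clopper and Pearson for a gene's reads in both libraries, without the added 0.5 CPM, and cover counting error only, since duplicate reads from PCR are not marked. The binomial p is the smaller tail times 2. A quasi-likelihood or DESeq2 test needs replicates, and the EB-Seq tool of the authors was not at hand, so the authors' fold and FDR limits were applied to the binomial test. The script was tested on simulated data with 200 changed genes, all with large changes and at least 100 expected counts. The simulated counts varied by counting error only. The test therefore does not cover calls near the fold limit, low counts or variation between pools of fish.

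Members and gene lists were chosen with earlier results of these data known. Genes are named when they were called, were among the 15 members with most counts, led their family or formed a duplicate with a called gene. The other members named, among them those near a limit, and the other duplicates were chosen after their values were seen. The alternatives were total counts, DESeq2 1.42.0 size factors and upper quartile factors, count minimums of 1 and 100, a fold limit of 1.5, the fold limit alone, 2 CPM added before log2 and the edgeR exact test with assumed coefficients of variation of 0.2 and 0.4.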

Additional observations from a re-analysis of the deposited data

How the results depend on the processing

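The numbers of members called were 3, 2 and 3 at 8 psu against 0 psu, 16 psu against 0 psu and 16 psu against 8 psu. A count minimum of 100 gave 0, 1 and 1 of 45 members, where 7.06, 8.82 and 3.5% of all genes were called. A fold limit of 1.5 gave 9, 8 and 8 of 72, where 21.6, 24.3 and 12.5% of all genes were called. With 2 CPM added before log2 the numbers were 0, 1 and 1 of 72, beside 3.28, 4.43 and 1.7% of all genes. The 1 member called in each comparison of 16 psu, under the minimum of 100 and with 2 CPM added, was dnajb11. The edgeR exact test gave 0, 0 and 0 with an assumed coefficient of variation of 0.2, where 478, 818 and 257 of all genes were called (2.88, 4.94 and 1.55%). With 0.4 it gave 0, 0 and 0, where 38, 96 and 55 of all genes were called (0.229, 0.579 and 0.332%). Under both assumed coefficients dnajb11 was not called. The coefficient between pools of fish was not measured. The other 15 counts of members called, over the remaining alternatives, stayed within 1.5 times, and single calls were lost for bag4 with total counts or upper quartile factors, for dnajc12 with upper quartile factors (log2 fold change 0.99) and for bag2 with a minimum of 1 count.

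No paired analysis was possible because each salinity had 1 library, and leaving out a library or the DESeq2 test could not be run for the same reason. Depth limited dnajc21, dnajb1a, bag2 and hspb7, which rested on 41 counts or fewer per library.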
